A study of Mus musculus with 16 samples.

Results

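Collecting duct principal cells were examined in 4 single-cell RNA libraries of mouse kidney. A cell was kept with at least 500 UMIs (unique molecular identifiers, each standing for 1 captured RNA molecule), 200 or more genes, and a mitochondrial share no higher than 50%. A kept cell was counted as a principal cell where Aqp2, Aqp3 and Fxyd4 together made up at least 1% of its UMIs. Its Calb1 had to be under 0.2% of UMIs, and Slc12a3 and Atp6v1g3 at 2 UMIs or fewer each, which sets aside connecting tubule, distal convoluted tubule and intercalated cells. These limits gave 886 principal cells among 24975 kept cells. Because the limits are set on measured RNA, the levels of these 6 genes in the chosen cells are given as a description. They stayed in the fit over all genes, and no test of them is given.

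The libraries came from kidneys of wild type mice and of Gulo-/- mice of the C57BL/6 strain, with 2 libraries per genotype. Gulo encodes the last enzyme of ascorbate (vitamin C) synthesis, so mice that lack it depend on ascorbate in the diet. The labels give neither the animals' age nor the ascorbate supply. They also do not say that the libraries are of separate animals, so the p-values cannot be taken to measure how animals vary. The main gene tests hold 1 wild type library, which gives no spread of its own. The tissue was cut up and mixed before it was divided among the assays of the study.

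Principal cells line the collecting duct together with the acid- and base-secreting intercalated cells. Vasopressin binds the receptor Avpr2 on their basolateral side, raises cyclic AMP and moves the water channel Aqp2 into the apical membrane, and water leaves the cell through Aqp3 and Aqp4. Sodium enters through the epithelial sodium channel, built of Scnn1a, Scnn1b and Scnn1g, and is pumped out by the sodium pump, which Fxyd4 regulates. Hsd11b2 inactivates glucocorticoids and so keeps the mineralocorticoid receptor for aldosterone.

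The libraries held very different numbers of principal cells. Wild type replicate 1 gave 2 and wild type replicate 2 gave 36, whereas Gulo-/- replicate 1 gave 102 and Gulo-/- replicate 2 gave 746. Their summed depth was 16101, 397136, 590802 and 6052505 UMIs in the same order, and their median depth was 8050.5, 9466.5, 5457 and 7588 UMIs per cell. One UMI was therefore worth 62.1 CPM (UMIs scaled to a common library total) in wild type replicate 1 and 0.165 CPM in Gulo-/- replicate 2. Both principal cells of wild type replicate 1 have barcodes that also occur in wild type replicate 2, where the same barcodes carried 4352 and 4536 UMIs against 7829 and 8272. Such shared barcodes, 986 in all, were removed from wild type replicate 2. No barcode of a principal cell occurred as a principal cell in a pair of libraries after that. Each genotype had 1 female library (wild type replicate 1, Gulo-/- replicate 2) and 1 male library by Xist and Ddx3y. Gulo RNA was nearly undetected, with 1 UMI in wild type replicate 2 and 2 in Gulo-/- replicate 2, and could not check the labels.

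The cells carried the RNA of principal cells beyond the genes that chose them. Avpr2 stood at 311 and 705 CPM in wild type cells, by library, and at 410 and 436 CPM in Gulo-/- cells. Hsd11b2 stood at 5962, 3445, 4174 and 3358 CPM in the same order of libraries. Scnn1b stood at 994, 410, 508 and 435 CPM, and Scnn1g at 373, 355, 296 and 339 CPM. The transcription factor Gata3 was at 62.1, 300, 401 and 282 CPM, and the tight junction protein Cldn8 at 248, 473, 284 and 588 CPM. In thick ascending limb cells of wild type replicate 2 and of the first and second Gulo-/- libraries, Avpr2 was at 8.76, 15.7 and 18.8 CPM, and Hsd11b2 at 12.5, 18.9 and 42.2 CPM. Both genes were higher in principal cells than in thick ascending limb cells in each of these libraries. Hoxb7, a ureteric bud gene, was at 98.2, 125 and 139 CPM in principal cells of the 3 libraries and at 32.6, 25.2 and 31.0 CPM in their thick ascending limb cells.

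The share of cells with a UMI gave the same picture once every cell was thinned to 2000 UMIs. Avpr2 was found in 24 of 36, 45 of 94 and 357 of 746 thinned principal cells of wild type replicate 2 and of the first and second Gulo-/- libraries. Proximal tubule cells, which should lack the gene, had it in 6 of 694, 0 of 63 and 0 of 212 cells, and 0 of 63 allows a share of up to 5.69% (95% exact binomial limit). Before thinning, Avpr2 was found in 94.4%, 67.6% and 81.6% of principal cells, and in 1.54%, 1.19% and 0.442% of proximal tubule cells. Thinning left out 8 principal cells of Gulo-/- replicate 1. Hoxb7 was less specific, with 16.7%, 25.5% and 23.3% of thinned principal cells against 7.06%, 4.76% and 6.6% of thinned proximal tubule cells.

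**Figure D1:**
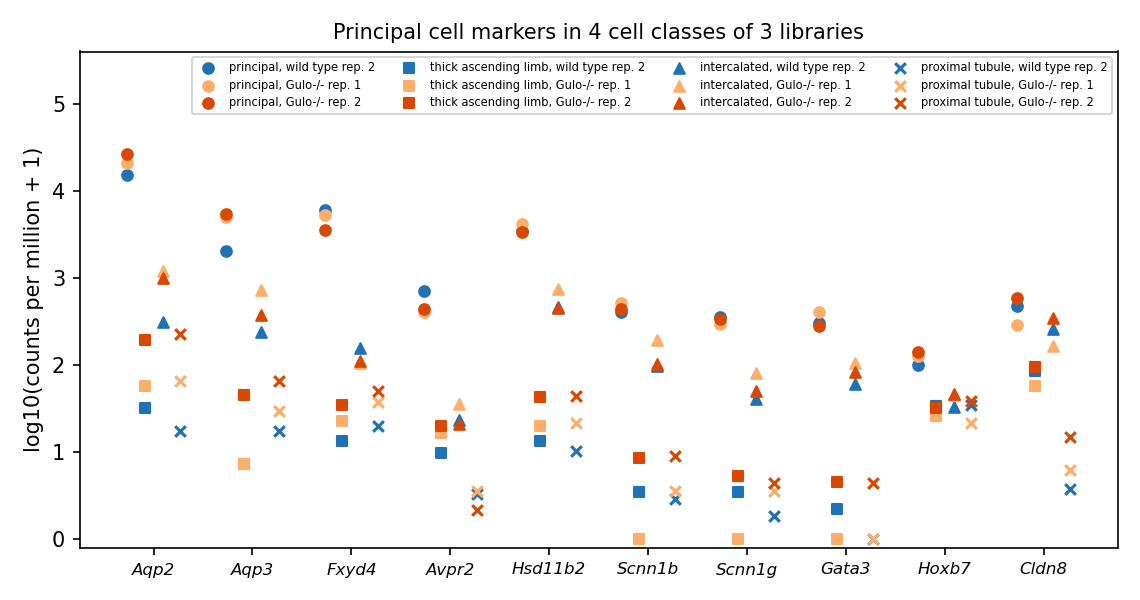
Levels of 10 principal cell markers, as log10(CPM + 1), in principal, thick ascending limb, intercalated and proximal tubule cells (marker shapes) of the 3 libraries with at least 10 principal cells (colours). Principal cells lie above the other 3 classes for each of the 10 genes in each library; Aqp2, Aqp3 and Fxyd4 chose the cells.

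The 30 genes with the largest ratio of their mean CPM in principal cells to that in all other kept cells, among genes with at least 50 CPM, describe the cells further. No test was made, since the cells were chosen by their RNA. Elf5, a transcription factor, led with a ratio of 106. It stood at 128 CPM in wild type replicate 2 and at 33.9 and 34.9 CPM in the Gulo-/- libraries. Its mean thus passed 50 CPM through wild type replicate 2. The water channel Aqp4 had a ratio of 79.1, the lysosomal channel Mcoln3 49.6 and the prostaglandin receptor Ptger1 42.0. The growth factor Btc had 36.5, and the secreted BMP antagonist Grem1 had 22.6. Grem1 passed 50 CPM through the Gulo-/- libraries, at 262 and 223 CPM, with 0 CPM in wild type replicate 2. In the authors' deposited table of cluster markers, the cluster named CD-PC lists 401 genes, and 23 of the 30 genes are among them. All 10 genes of the marker panel are listed there too, and Elf5 is not. The marker table comes from the same study, so this overlap is a description and no independent check of the cells. In the authors' deposited table Avpr2 was detected in a share of 0.832 of the cells of that cluster and 0.05 of the other cells.

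Near the limit of 1% the chosen and rejected cells were not far apart. The lowest share of Aqp2, Aqp3 and Fxyd4 among principal cells was 1.013% in wild type replicate 2 and 1.004% in Gulo-/- replicate 2. The highest share among cells just outside it was 0.9672% and 0.9864%. The median share was 2.08% in wild type replicate 2, 2.78% in Gulo-/- replicate 1 and 3.46% in Gulo-/- replicate 2. Of the 1125 cells of Gulo-/- replicate 2 at or above 1%, Atp6v1g3 removed 254, Calb1 115 and Slc12a3 35, and a cell could fail on several.

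Principal cells were a larger share of the kept cells in both Gulo-/- libraries than in either wild type library. They made up 0.125% (95% exact binomial interval 0.0152 to 0.452) of wild type replicate 1 and 0.477% (0.335 to 0.66) of wild type replicate 2. They made up 5.43% (4.45 to 6.56) of Gulo-/- replicate 1 and 5.34% (4.98 to 5.73) of Gulo-/- replicate 2. The intervals cover counting error only. The means were 0.301% ± 0.249 (SD, n = 2) and 5.39% ± 0.0644 (SD, n = 2), a difference of 5.09 percentage points. The genotypes did not overlap, and the two-sided exact permutation test gave p = 0.333, the smallest p that 2 against 2 libraries allow.

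A share of all kept cells moves with every other class. Thick ascending limb cells numbered 17 of 1595 and 140 of 7541 kept cells in wild type, by library, and 93 of 1877 and 2978 of 13962 in Gulo-/-. Intercalated cells numbered 11, 102, 60 and 1202 in the same order of libraries. Both classes were thus also a larger share of kept cells in both Gulo-/- libraries than in either wild type library. Among principal, thick ascending limb and intercalated cells alone, principal cells made up 6.67% and 12.9% of wild type cells, by library, and 40.0% and 15.2% of Gulo-/- cells. The wild type libraries stayed below the Gulo-/- libraries, but the gap between wild type replicate 2 and Gulo-/- replicate 2 was small. The means were then 9.81% ± 4.44 (SD, n = 2) and 27.6% ± 17.5 (SD, n = 2), with the same exact permutation p of 0.333.

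**Figure D2:**
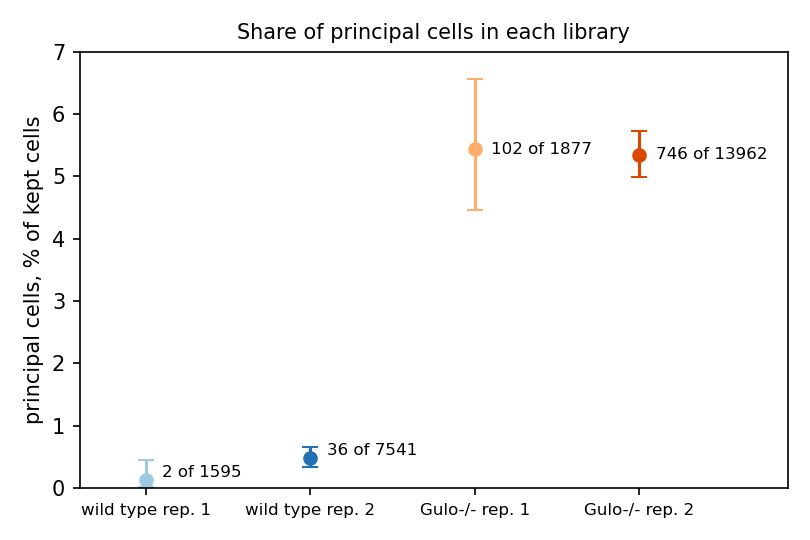
Principal cells as a percentage of kept cells in each of the 4 libraries, with 95% exact binomial intervals and the numbers of cells. The wild type libraries lie at 0.125% and 0.477%, and the Gulo-/- libraries at 5.43% and 5.34%.

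Levels within principal cells were compared between genotypes on UMI counts summed per library. Wild type replicate 1, with 2 cells, was left out, so 1 wild type library stood against 2 Gulo-/- libraries, and the lone library was assumed to vary like the others. Of 7544 genes tested with edgeR's quasi-likelihood test, 25 passed a Benjamini-Hochberg adjusted p of 0.05. They were 6 genes higher in Gulo-/- cells, or 0.0795% of genes tested, and 19 genes lower, or 0.252%. At an unadjusted p of 0.05 there were 592 genes. A gene could enter the test through 1 library alone.

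Genes of water transport other than those that chose the cells were not called. Aqp2 stood at 8447 and 15287 CPM in wild type cells, by library, and at 20672 and 26745 CPM in Gulo-/- cells. Aqp3 stood at 2236 and 2060 CPM in wild type cells, by library, and at 5014 and 5445 CPM in Gulo-/- cells. Both wild type libraries lay below both Gulo-/- libraries for Aqp2 and for Aqp3, genes whose levels the choice of cells used. Fxyd4 stood at 3726, 5990, 5249 and 3544 CPM, and the genotypes overlapped. For the genes the rule did not use, the receptor Avpr2 had a log2 fold change of -0.65 ± 0.28 (SE; edgeR adjusted p = 0.633). Aqp4, the other basolateral water channel, stood at 574 CPM in wild type replicate 2 and at 328 and 353 CPM in the Gulo-/- libraries (log2 fold change -0.66 ± 0.29, adjusted p = 0.633). Gnas, the G protein subunit that couples Avpr2 to cyclic AMP, had a log2 fold change of 0.04 ± 0.30. In the list of 22 water channel and vasopressin signalling genes, 16 were tested besides Aqp2 and Aqp3. Of these 0 were called in either direction, and the median log2 fold change was 0.25 beside 0.02 over all genes.

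Genes of sodium and potassium transport were not called either. The epithelial sodium channel subunits Scnn1a, Scnn1b and Scnn1g had log2 fold changes of -0.09 ± 0.39, 0.29 ± 0.31 and -0.07 ± 0.31. Hsd11b2 had 0.22 ± 0.26. Sgk1, the aldosterone-induced kinase that stabilises the channel, stood at 101 CPM in wild type replicate 2 and at 262 and 221 CPM in the Gulo-/- libraries (1.35 ± 0.38, edgeR adjusted p = 0.286). Kcnj1, the potassium channel through which potassium is secreted, stood at 592 CPM against 415 and 334 CPM (-0.58 ± 0.31). Of 17 tested genes of the sodium channel and mineralocorticoid list, 0 were called and the median log2 fold change was 0.08. Of 4 sodium pump genes besides Fxyd4 and 7 potassium and chloride channel genes tested, 0 were called, with medians of 0.05 and 0.25. These intervals are wide, and a fold change that did not pass is not shown to be absent.

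**Figure D3:**
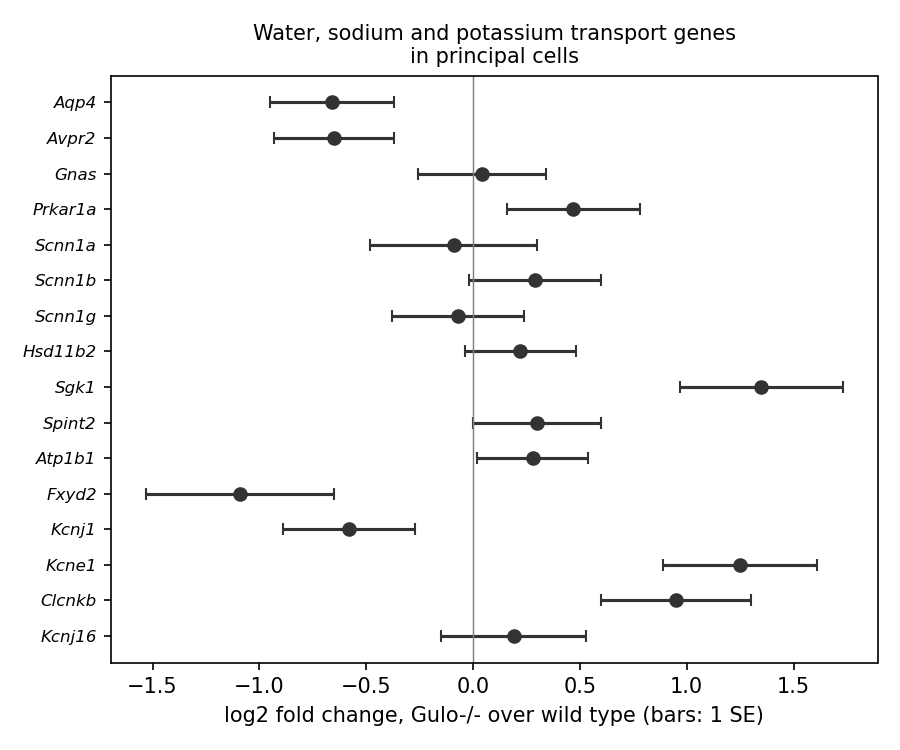
Log2 fold change between Gulo-/- and wild type principal cells, with bars of 1 standard error, for 16 water, sodium, potassium and chloride transport genes in the fit of 1 against 2 libraries. None of the 16 passed the adjusted threshold; Sgk1 lies farthest to the right at 1.35 and Fxyd2 farthest to the left at -1.09, and the genes that chose the cells are not shown.

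S100g rose by a log2 fold change of 5.07 ± 0.37 (SE; edgeR adjusted p = 0.0016). It encodes calbindin-D9k, a calcium-binding protein of the distal convoluted and connecting tubule. It stood at 186 and 146 CPM (3 and 58 UMIs) in wild type cells and at 3873 and 5385 CPM in the Gulo-/- libraries. Within the Gulo-/- libraries the gene was concentrated in few cells: 11 of 102 and 135 of 746 principal cells had at least 1% of their UMIs from S100g, and they held 90.0% and 86.5% of its UMIs. No principal cell of wild type replicate 2 reached 1%, which for 0 of 36 cells allows a share of up to 9.74% (95% exact binomial limit). In the remaining principal cells S100g stood at 423 and 881 CPM in the Gulo-/- libraries. That is near its level of 606 and 852 CPM in proximal tubule cells of the same libraries, and wild type replicate 2 had 146 CPM in principal and 236 CPM in proximal tubule cells. After thinning, 47.9% and 70.1% of Gulo-/- principal cells had an S100g UMI against 65.1% and 79.2% of proximal tubule cells. In thick ascending limb cells S100g stood at 223, 327 and 571 CPM in wild type replicate 2 and in the first and second Gulo-/- libraries. In intercalated cells it stood at 4096, 6841 and 5251 CPM in the same order. The part of S100g RNA from outside cells in these values was not tested.

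Grem1, a secreted antagonist of bone morphogenetic proteins, was not found in wild type principal cells. It had 0 UMIs in both wild type libraries, and 155 and 1348 UMIs, or 262 and 223 CPM, in the Gulo-/- libraries. Against a floor of 3 UMIs in wild type replicate 2 (7.55 CPM), the mean of the Gulo-/- libraries was at least 32.1-fold higher (edgeR adjusted p = 0.00556). After thinning, 0 of 36 principal cells of wild type replicate 2 had a UMI of it, against 22 of 94 and 202 of 746 in the Gulo-/- libraries. In proximal tubule cells it was found in 0 of 694, 0 of 63 and 1 of 212 thinned cells.

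Scg5, Atp4a and Ddit4l also rose. Scg5, a chaperone of a prohormone convertase, stood at 20.1 CPM in wild type replicate 2 and at 218 and 485 CPM in the Gulo-/- libraries (log2 fold change 4.22 ± 0.66, edgeR adjusted p = 0.0486). Atp4a, the catalytic subunit of the gastric-type proton-potassium pump, stood at 22.7 CPM against 217 and 379 CPM (3.82 ± 0.56, edgeR adjusted p = 0.0384). Ddit4l, a stress-induced inhibitor of mTOR signalling, stood at 30.2 CPM against 193 and 231 CPM (2.90 ± 0.45, edgeR adjusted p = 0.0458). Each had 0 UMIs in the 2 cells of wild type replicate 1, where 3 UMIs would be 186 CPM. In proximal tubule cells of the Gulo-/- libraries they stood at 17.3 CPM or less. The sixth gene is an unnamed gene model. All 3 lost their call when doublets were removed, with edgeR adjusted p of 0.101, 0.101 and 0.092. With sex as a block over 4 libraries Ddit4l lost it too, with an edgeR adjusted p of 0.0951.

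**Figure D4:**
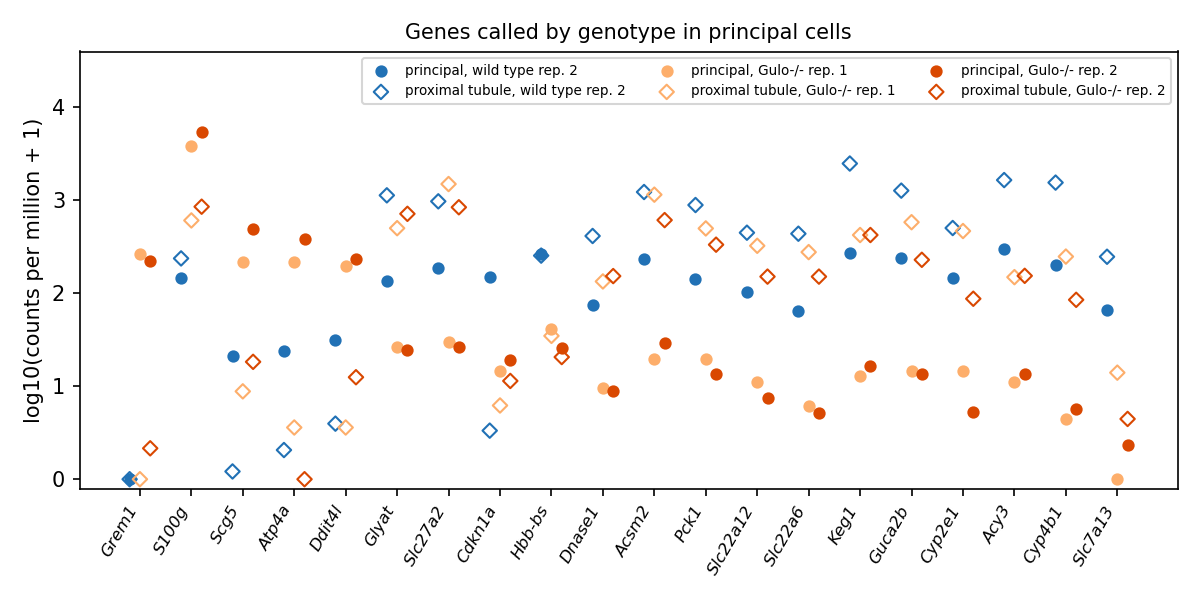
Levels, as log10(CPM + 1), of the 20 named genes that passed the test in principal cells, in principal cells (filled points) and proximal tubule cells (open diamonds) of 3 libraries (colours). The 5 genes on the left are higher in both Gulo-/- libraries than in wild type replicate 2, and the 15 on the right are lower; for 13 of these 15 the open diamond of wild type replicate 2 lies above its filled point.

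Most of the 19 genes that fell are known from the proximal tubule. Keg1, a glycine acyltransferase-like enzyme, stood at 269 CPM in wild type replicate 2 and at 11.8 and 15.5 CPM in the Gulo-/- libraries (log2 fold change -4.12 ± 0.35, edgeR adjusted p = 0.0021). Acy3, an aminoacylase, stood at 297 CPM against 10.2 and 12.6 CPM (-4.55 ± 0.36, edgeR adjusted p = 0.00165). Cyp4b1, a cytochrome P450, stood at 201 CPM against 3.39 and 4.63 CPM (-5.42 ± 0.40, edgeR adjusted p = 0.0016). Guca2b, which encodes uroguanylin, stood at 237 CPM against 13.5 and 12.4 CPM (-4.14 ± 0.35, edgeR adjusted p = 0.0021). The others of this kind were Slc7a13, Cyp2e1, Slc22a6, Slc22a12, Pck1, Acsm2, Dnase1, Slc27a2 and Glyat, with log2 fold changes from -5.70 for Slc7a13 to -2.42 for Glyat. Cndp2, Akr1c21 and Odc1, outside the 15 named by size of change, fell by 2.40, 2.34 and 2.14 on the log2 scale. After doublet removal Keg1, Acy3 and Guca2b kept their call, and Slc7a13 was not tested. The other 9 named genes of this kind lost it, with edgeR adjusted p from 0.0838 for Cyp4b1 and Acsm2 to 0.579 for Slc22a6. In proximal tubule cells, Cyp2e1, Slc7a13 and Guca2b stood at 23.6, 0.371 and 135 CPM in wild type replicate 1, which was female. In wild type replicate 2, which was male, they stood at 502, 246 and 1269 CPM. Only Pck1 and Glyat went the other way, at 1304 and 1368 CPM in wild type replicate 1 against 888 and 1129 CPM. Whether these levels go with sex was not tested. Wild type replicate 2 and Gulo-/- replicate 1 were both male. In principal cells, each of the named genes of this kind was lower in the latter. In the fit of all 4 libraries with sex as a block, 3 of them could be tested and lost their call, Glyat, Slc27a2 and Acsm2, with edgeR adjusted p of 0.629, 0.286 and 0.0655.

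Of the 19 genes, 16 were higher in proximal tubule cells of wild type replicate 2 than in its principal cells, where their level was 7.63% to 28.6% of the proximal one. Slc27a2 is also 1 of the 5 genes that chose those proximal tubule cells, which favours that order. Keg1 stood at 2483 CPM, Acy3 at 1648 CPM and Cyp4b1 at 1548 CPM in those cells. In proximal tubule cells of wild type replicate 1 and of the first and second Gulo-/- libraries, Keg1 stood at 2079, 422 and 422 CPM. Acy3 stood there at 295, 148 and 153 CPM, and Cyp4b1 at 60.9, 247 and 84.0 CPM. Of the 16, only Slc27a2 was higher in proximal tubule cells of a Gulo-/- library than in those of wild type replicate 2, at 1494 CPM in Gulo-/- replicate 1 against 973 CPM. Against wild type replicate 1 the order was mixed. Some of the 16, such as Cyp4b1, were higher in both Gulo-/- libraries, and others, such as Keg1, were lower. For 13 of the 19, the level in thick ascending limb cells of wild type replicate 2 was within 2-fold of that in principal cells. The proximal tubule list summed to 9762 CPM in principal cells of wild type replicate 2 and to 1830 and 2245 CPM in those of the Gulo-/- libraries. None of its 18 tested members had a positive log2 fold change, beside 51.5% of all genes. Their median log2 fold change was -1.95 beside 0.02. The list was chosen with earlier results of these data known, so these values are a description only. Single cells contributed much: of 80 Cyp4b1 UMIs in wild type replicate 2, 43 lay in 1 cell, as did 43 of 93 Acsm2 UMIs. From the 5 genes that chose proximal tubule cells, 2 of 36 principal cells of wild type replicate 2 had at least 0.2% of UMIs. So had 3 of 102 and 15 of 746 in the Gulo-/- libraries. Without these cells Keg1, Acy3, Guca2b and Cyp4b1 kept log2 fold changes of -4.30, -4.36, -3.94 and -4.40 with edgeR adjusted p from 0.000102 to 0.00974. Cyp2e1, Slc22a12, Dnase1 and Slc22a6 lost their call there, with edgeR adjusted p of 0.122, 0.195, 0.208 and 0.408. The part of proximal tubule RNA outside cells in these values was not tested.

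Hbb-bs and Cdkn1a were outside that group. Hbb-bs, a beta-globin gene of red blood cells, stood at 264 CPM in wild type replicate 2 and at 40.6 and 24.6 CPM in the Gulo-/- libraries (log2 fold change -3.06 ± 0.39, edgeR adjusted p = 0.021). In proximal tubule cells it stood at 253, 33.8 and 19.6 CPM. It lost its call after doublet removal and with sex as a block over 4 libraries, with edgeR adjusted p of 0.0501 and 0.22. Cdkn1a, which encodes the cell cycle inhibitor p21, stood at 149 CPM against 13.5 and 18.3 CPM (-3.04 ± 0.38, edgeR adjusted p = 0.021). In wild type replicate 2 it had 59 UMIs, of which 39 lay in 1 cell, and 8 of the 36 cells had any. Without the cell that held most of its UMIs the levels were 52.5 CPM in wild type replicate 2 and 8.57 and 16.1 CPM in the Gulo-/- libraries. The remaining gene is an unnamed gene model.

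The genotype differences were set against those in thick ascending limb cells of the same 3 libraries, a neighbouring tubule cell, in 1 fit with the library as a term. Of 8530 genes tested, 69, or 0.809%, had a difference that depended on the cell type by edgeR's quasi-likelihood test. Among the named genes these were S100g, Scg5, Atp4a, Ddit4l and Cdkn1a. Grem1 was given no value, since it had 0 UMIs in wild type principal cells. In thick ascending limb cells it stood at 0, 0 and 1.5 CPM in the 3 libraries. Atp4a stood at 76.4 CPM in thick ascending limb cells of wild type replicate 2 and at 28.3 and 19.4 CPM in those of the Gulo-/- libraries. This is the opposite order to principal cells (interaction log2 6.17 ± 0.49). Cdkn1a stood at 11.3, 6.29 and 40.6 CPM in thick ascending limb cells of the 3 libraries (interaction -4.46 ± 0.53). The spread in this fit is largely pooled over genes, since 1 wild type library gives none of its own. None of the 16 genes that were higher in proximal tubule cells had a difference that depended on the cell type, and the lowest edgeR adjusted p among them was 0.13. In Gulo-/- thick ascending limb cells these 16 genes stood at 47.8% or less of their level in wild type replicate 2.

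The other lists held few calls. Of 25 tested collecting duct transcription factors 0 were called, with a median log2 fold change of 0.34. In that list Hoxd8 stood at 295 CPM against 653 and 619 CPM (1.20 ± 0.31), and Hes1, a target of Notch signalling, at 1556 CPM against 740 and 798 CPM (-0.93 ± 0.27), and neither passed. Of 17 tested tight junction genes and 16 genes of prostaglandin, endothelin and purinergic signalling, 0 were called. Of 13 tested tubular injury genes 1 was called lower, Cdkn1a. Spp1, which encodes osteopontin, stood at 373 and 481 CPM in wild type cells, by library, and at 1611 and 2421 CPM in Gulo-/- cells, with an edgeR adjusted p of 0.0514. Wfdc2, a secreted protein of ductal epithelia, stood at 1366 and 962 CPM against 2845 and 2764 CPM, with an edgeR adjusted p of 0.0633. The levels in wild type replicate 1 rest on 2 cells, with 6 Spp1 UMIs and 22 Wfdc2 UMIs. In wild type replicate 2, 110 of 191 Spp1 UMIs lay in 1 cell. In proximal tubule cells Spp1 stood at 1375 and 173 CPM in wild type, by library, and at 1465 and 2615 CPM in Gulo-/-.

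Markers of other cells were followed in the principal cells as well. The list for the distal convoluted and connecting tubule summed to 1015 CPM in wild type replicate 2, of which S100g gave 146 CPM. It summed to 4875 and 7180 CPM in the Gulo-/- libraries, of which S100g gave 3873 and 5385 CPM. The list and its sums include Calb1 and Slc12a3. Of its 8 other tested members 1, S100g, was called higher. The thick ascending limb list summed to 504, 670 and 2049 CPM, with Umod at 126, 134 and 890 CPM. The endothelial list summed to 57.9, 330 and 322 CPM, with Pecam1 at 0, 11.8 and 14.0 CPM. The intercalated cell list, which includes Atp6v1g3, summed to 1121, 1368 and 1529 CPM in the same libraries. Of its members that the rule did not use, Slc4a1 and Slc26a4 stood at 9.09 CPM or less there. The urothelial keratin Krt5 was at 0 in all 4 libraries. The part of these markers in the genotype differences was not tested.

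Within each library the principal cells differed among themselves by Aqp4 and S100g, a division chosen after the values were seen. Aqp4 had a UMI in 23 of 36 cells of wild type replicate 2, 39 of 102 of Gulo-/- replicate 1 and 230 of 746 of Gulo-/- replicate 2. At 2000 UMIs per cell the shares were 52.8% (95% exact binomial interval 35.5 to 69.6), 25.5% (17.1 to 35.6) and 19.7% (16.9 to 22.7). In proximal tubule cells, 0 of 694, 0 of 63 and 0 of 212 thinned cells had one. The intervals of wild type replicate 2 and Gulo-/- replicate 1 meet within a narrow range, and the difference was not tested. Cells with an Aqp4 UMI carried more Fxyd4 than cells without one: 6114 against 5705 CPM in wild type replicate 2, 8379 against 2492 CPM in Gulo-/- replicate 1 and 5849 against 2352 CPM in Gulo-/- replicate 2.

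Other genes went with Aqp4 in each of the 3 libraries. Lcn2, which encodes the iron-siderophore-binding lipocalin NGAL, stood at 887, 2404 and 694 CPM in cells with Aqp4 and at 367, 331 and 105 CPM in cells without. The transcription factor Elf5 stood at 151, 68.7 and 92.6 CPM against 75.1, 3.18 and 5.01 CPM. Akr1b3, the aldose reductase that makes the osmolyte sorbitol, stood at 216, 184 and 251 CPM against 75.1, 31.8 and 62.2 CPM. Tmem52b went the other way, at 93.8, 10.8 and 126 CPM in cells with Aqp4 and 475, 764 and 783 CPM in cells without. So did Clu, at 314, 50.6 and 45.5 CPM against 1360, 376 and 300 CPM. Scnn1b was at 307, 351 and 312 CPM in cells with Aqp4 and at 651, 646 and 499 CPM in cells without.

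Cells with S100g at 1% of UMIs or more lay at the other end. Of the 11 such cells in Gulo-/- replicate 1, 0 had an Aqp4 UMI, and of the 135 in Gulo-/- replicate 2, 3 had one. Among the other cells 39 of 91 and 227 of 611 had one. Klk1, a kallikrein of the connecting tubule, stood at 1839 and 2439 CPM in the S100g-rich cells and at 72.1 and 433 CPM in the others of these libraries. The calcium channel Trpv5 stood at 99.9 and 71.2 CPM against 11.1 and 8.18 CPM, and Kl, a co-receptor for FGF23, at 580 and 737 CPM against 79.5 and 159 CPM. Their Aqp2 was at 12134 and 14995 CPM against 21462 and 29181 CPM, and their Calb1 at 1019 and 1141 CPM, which the limit of 0.2% caps. S100g, Klk1 and Trpv5 are known from the connecting tubule, where principal-like cells with Aqp2 begin, though Klk1 also stood at 3185, 3884 and 3068 CPM in thick ascending limb cells of the 3 libraries.

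**Figure D5:**
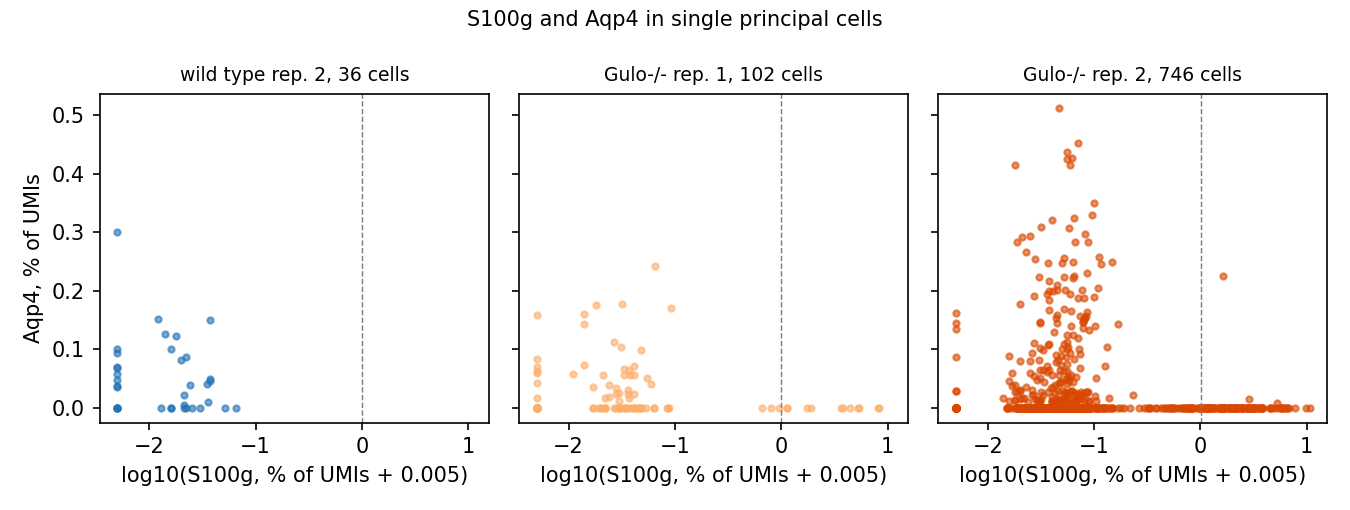
Aqp4 (percent of UMIs) against S100g (log10 of percent of UMIs plus 0.005) in single principal cells of 3 libraries; the dashed line marks S100g at 1% of UMIs. To the right of the line lie 0 of 36, 11 of 102 and 135 of 746 cells, and 3 of them have an Aqp4 UMI.

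The main gene results were followed within these divisions. Among cells with S100g under 1% of UMIs, Grem1 remained at 259 and 238 CPM in the Gulo-/- libraries with 0 UMIs in wild type replicate 2. Atp4a stood at 22.7 CPM against 213 and 386 CPM, and Scg5 at 20.1 CPM against 209 and 463 CPM. Apart from S100g, whose level defines these cells, the other 19 named genes passed the test there, and 202 genes were called in all. Among cells with an Aqp4 UMI, Atp4a stood at 18 CPM in wild type replicate 2 and at 14.5 and 165 CPM in the Gulo-/- libraries, so the genotypes overlapped, and its edgeR adjusted p was 0.944. Among cells without one it stood at 33.4 CPM against 395 and 490 CPM, with an edgeR adjusted p of 0.0121. S100g in cells with an Aqp4 UMI was at 137 CPM against 228 and 924 CPM, with an edgeR adjusted p of 0.0464.

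Regions of differential methylation, which the authors' deposited table lists from bisulfite sequencing of whole kidney, were searched for the 10 marker genes. The table gives mean methylation on 2 sides of a comparison and does not name the genotype of either side, and its values have no replicate error. In whole kidney, principal cells are a small part, so these values need not be theirs. The table assigns 45 regions to the 10 genes, and side 1 is lower in 26, or 57.8%, beside 53.8% of all 86510 regions. Of the 45, 4 are promoter regions, at Aqp3, Avpr2, Fxyd4 and Cldn8, and side 1 is lower in all 4, beside 78.5% of the 7867 promoter regions of the table. In the authors' deposited table the Aqp3 region (mm10, chr4:41097292-41098305, 47 CpGs) has levels of 0.218 and 0.354. The Avpr2 region (mm10, chrX:73891270-73891823, 6 CpGs) has 0.427 and 0.742 there, and the Fxyd4 region (mm10, chr6:117937718-117937935, 5 CpGs) has 0.466 and 0.668. Aqp2 has 4 regions there, none at its promoter, and side 1 is lower in 2.

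The Aqp3 region is the one that reaches into the 250 bases before a transcription start as the RefSeq promoter table places it, among the 7 of 10 marker genes that the table holds. By the start that the authors used, the Fxyd4 region lies at -195 bases, and it does not overlap the RefSeq window of Fxyd4. The Aqp3 region overlaps the 122 bases next to the start. The sequence is shown because it carries the CpGs that the region covers: RefSeq, GRCm38.p6, chr4:41098184-41098433, minus strand, 5′ to 3′, with the 11 CpGs inside the authors' region in capitals.
Aqp3 promoter: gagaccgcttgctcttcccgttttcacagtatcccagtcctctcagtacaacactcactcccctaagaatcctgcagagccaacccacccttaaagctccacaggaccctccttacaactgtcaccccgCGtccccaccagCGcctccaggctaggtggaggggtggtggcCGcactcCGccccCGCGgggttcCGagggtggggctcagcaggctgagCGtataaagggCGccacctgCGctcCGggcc
The window holds 14 CpGs, and the median over the 32851 promoter windows of the table is 6. A CpG, the letters CG on both strands, occurs in 92.1% of the windows.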

How the data were processed

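The deposited single-cell matrices hold raw UMI counts by the authors, from 2 wild type and 2 Gulo-/- libraries of 10208946, 61688164, 10073836 and 88925323 UMIs. No source used here names the counting tool; the submitters' processing notes name mm10, Seurat 2.3.4 and MACS2 2.1.2, with no role. The authors' deposited marker table gives a natural log ratio per gene and the fraction of cells with the gene detected. Their deposited methylation table gives levels as a fraction. The m6A and bulk RNA samples were not analysed here.

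UMI counts were summed per library and cell class and tested with edgeR 4.0.16 (TMM, filterByExpr, robust) over libraries with at least 10 principal cells; DESeq2 1.42.0 was an alternative. Thick ascending limb cells had Slc12a1 and Umod, and proximal tubule cells 5 genes (Slc34a1, Lrp2, Miox, Fbp1, Slc27a2), at 1% of UMIs or more. Scrublet in scanpy 1.11.5 scored doublets, which stayed in except in 1 alternative. The code was tested on simulated data. Named genes were called genes whose libraries did not overlap, at most 15 per direction by size of change, unnamed gene models only counted, called members of the 32 lists, and up to 6 uncalled members per list by mean level. Principal cells, lists and tests were chosen with earlier results of these data known. The alternatives stand in the closing section. Results for some genes are not reported here.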

Additional observations from a re-analysis of the deposited data

Results flagged for a closer look

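A difference that depended on the cell type was found for 5 of the named genes, when the genotype difference in principal cells was compared with that in thick ascending limb cells of the same libraries (edgeR's quasi-likelihood test of the interaction, 0.809% of genes called). The difference of the log2 fold changes was 4.23 for S100g, 3.44 for Scg5, 6.17 for Atp4a, 2.65 for Ddit4l and -4.46 for Cdkn1a. The p-values of this fit rest largely on a spread pooled over genes, and do not measure how wild type libraries vary. The S100g value rests on the 11 and 135 principal cells with at least 1% of their UMIs from S100g, and the Cdkn1a value on 59 UMIs in wild type replicate 2, 39 of them in 1 cell. Each rests on 1 wild type library.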

How the results depend on the processing

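The share difference between genotypes lay between 3.98 and 6.38 percentage points under other limits on cells, and between 4.91 and 5.26 with 1 library left out. The 25 called genes became 196 with a mitochondrial limit of 25%, 184 with a threshold of 2% of UMIs, 6 after doublet removal (2 higher, 4 lower), 41 with DESeq2 size factors (15 higher, 26 lower against 6 and 19), 183 with no filter on low counts and 52 with DESeq2's Wald test. With all 4 libraries 91 were called (68 higher, 23 lower), 14 with sex as a block (12 higher, 2 lower) and 34 with a replicate block. The deviations of libraries with the same replicate number had a correlation of 0.007, which is by construction the same for both numbers. With 2 cells in wild type replicate 1, this value cannot show whether the libraries pair. Of the 4-library fits with 1 library left out, chosen after seeing the data, the fit without wild type replicate 2 called 4 genes, that without Gulo-/- replicate 1 called 38 and that without Gulo-/- replicate 2 called 8. In the first, which rests on 2 wild type cells and moves the median of all genes to 1.64, 5 genes reversed: Acsm2 8.82, Cdkn1a 8.25, Glyat 8.76, Pck1 8.03 and Slc27a2 8.89. Alternatives over subsets, also chosen after seeing the data, called 202 genes (S100g under 1%), 39 (proximal tubule genes under 0.2%), 116 (with an Aqp4 UMI), 13 (without one) and 78 (genes at least as high in principal cells as in others). Differences that depended on the cell type numbered 25, 18 and 39 against 69 with the mitochondrial limit of 25%, the threshold of 2% and all 4 libraries, and 8, 15 and 3 with 1 library left out in the same order. The cause of these shifts was not tested. S100g passed in all 17 alternatives that tested it in cells not chosen by its level, with log2 fold changes from 2.16 to 5.64, and Grem1 in 18 of 19. The 1 wild type library with 36 cells limits every gene result.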

Other observations

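Gene lists outside transport showed few calls in principal cells. Of 13 tested interferon-stimulated genes 1 had a positive log2 fold change, beside 51.5% of all genes, their median was -0.83, and 0 were called. B2m, the light chain of MHC class I, stood at 373 and 428 CPM in wild type cells and at 144 and 146 CPM in the Gulo-/- libraries (edgeR adjusted p = 0.123). Of 45 tested nuclear genes of oxidative phosphorylation 34 had a positive log2 fold change with a median of 0.25, and 0 were called. Of 28 tested hypoxia and glycolysis genes 0 were called, with a median of 0.13. Of 9 tested DNA methylation enzymes and readers, among them Tet2 at 32.7 CPM in wild type replicate 2 against 32.2 and 22.3 CPM, 0 were called, with a median of -0.06. Among ascorbate genes, the transporter Slc23a2 stood at 5.04 CPM against 16.9 and 10.9 CPM, which is 2 UMIs in wild type replicate 2, so no level can be read there.

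Just outside the threshold stood 17 genes that the rule did not use, with an edgeR adjusted p from 0.0514 to 0.095. Car15, a membrane carbonic anhydrase, stood at 15.1 CPM in wild type replicate 2 and at 763 and 313 CPM in the Gulo-/- libraries. Spp1, Car15 and Wfdc2 passed in 14 of 18, 13 of 19 and 12 of 19 alternatives that tested them. These genes were chosen after their values were seen.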
